A study of Homo sapiens with 12 samples.

Results

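FLAG chromatin immunoprecipitation (ChIP-seq) was compared between Huh7 hepatoma cells overexpressing VPS72 and their control. The libraries were chosen by antibody: 2 of the 12 libraries of the series were FLAG ChIP, 1 with VPS72 overexpression and 1 control. The overexpression cells received lenti-VPS72-FLAG virus for 24 h, and the control cells lenti-HA virus, the empty vector, for the same 24 h. Both came from Huh7 cells in which Cas9 editing had placed a FLAG tag on the C-terminus of endogenous VPS72, with blasticidin selection of edited colonies. The control FLAG library therefore reports endogenous tagged VPS72, and the overexpression library endogenous and lentiviral protein together. The labels do not say how many colonies were used, and neither cells without a tag nor the amount of VPS72 protein were analysed here. FLAG signal that does not come from VPS72 could not be separated. The other 10 libraries, made in each condition for H3K27ac, H3K4me1, H2A.Z, its acetylated form (H2A.Zac) and input, are used only to describe what lies under FLAG.

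VPS72, also named YL1, is a histone chaperone subunit shared by the SRCAP and TIP60 remodelling complexes. It holds the H2A.Z and H2B dimer that these complexes exchange into nucleosomes, and TIP60 also acetylates H2A.Z. H2A.Z typically flanks the start sites of active and poised genes and marks enhancers. H3K27ac marks active promoters and enhancers, and H3K4me1 marks enhancers and promoter flanks.

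The members are the deposited FLAG peaks on chromosomes 1 to 22 and X, 551907 with overexpression and 184114 in the control, in hg19 coordinates. Of these, 89051 overexpression peaks (16.1% of the list) and 56422 control peaks (30.6%) were at least 500 bp wide and are called wide regions. The fold, p and q of a peak are the authors'. A whole number of reads at the summit could be solved from each peak's fold and −log10 p for 100% of the peaks of both lists, with more than 1 solution at 9 peaks with overexpression and 17 in the control. Reads are given as counted and also as height, which is reads over the genome average of the library, 0.329 reads per bp with overexpression and 0.456 in the control. At an assumed genome size of 2.7 Gb these averages correspond to 3.07 and 4.38 M (mega) reads, so both libraries were shallow and 1 read weighs 3.04 times the average with overexpression and 2.19 times in the control. With 1 library per condition there is no replicate spread: no difference was tested and none has a p-value. Intervals are 95% intervals, Wilson for shares and exact Poisson for reads, and cover counting error only.

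Regions with many FLAG reads were in both conditions nearly without exception, and the longer overexpression list was made of regions with few reads. The wide overexpression regions had a median of 3 reads at the summit (quartiles 2 and 6, highest 425), and the wide control regions a median of 7 (quartiles 5 and 12, highest 535). Their median width was 648 bp with overexpression against 742 bp in the control, and their median folds 2.67 and 3.96. A summit of 1 read was found at 13324 wide overexpression regions (14.96%) and at 0 wide control regions. In the complete lists such summits made up 53.8% with overexpression and 0% in the control. A single read on the average background has a −log10 p of 1.36 in the overexpression library and of 1.11 in the control, and the lowest −log10 p was 1.303 with overexpression and 1.302 in the control. At that limit, single reads could enter only the overexpression list. Of the wide regions, 29497 (33.1%) with overexpression and 40613 (72.0%) in the control had a q of 0.05 or less.

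**Figure D1:**
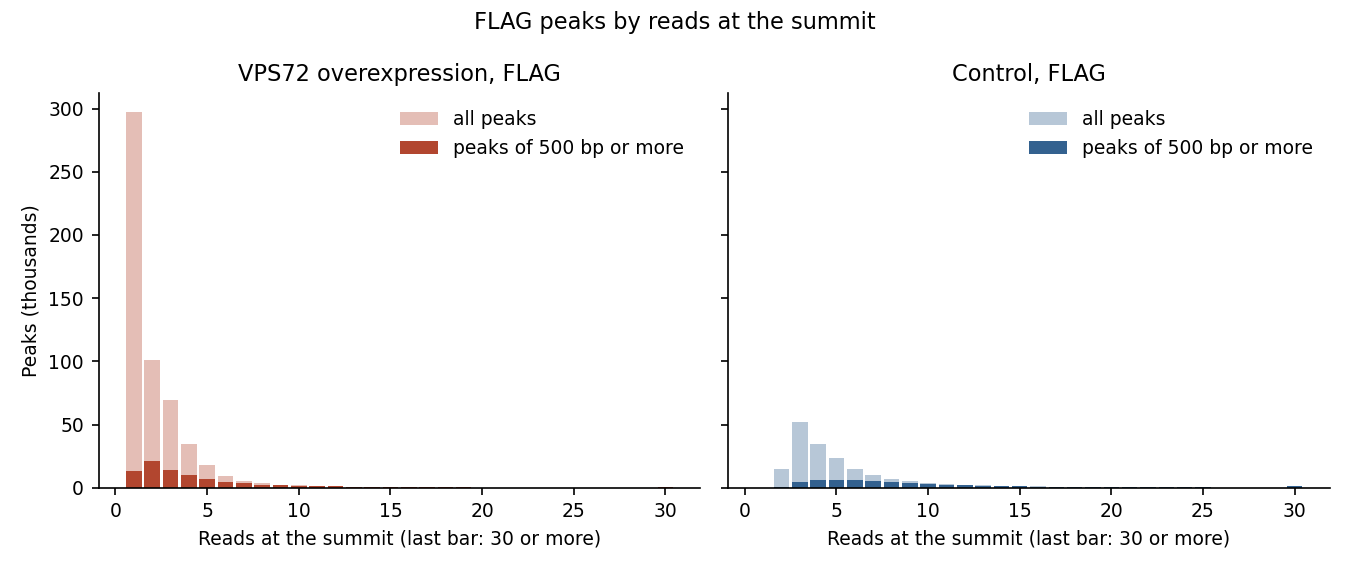
Number of FLAG peaks (in units of 1000) by whole reads at the summit, VPS72 overexpression left and control right, with all peaks pale and peaks of 500 bp or more dark; the last bar holds 30 reads or more. Peaks of 1 read are the tallest bar with overexpression (297013 of all peaks, 13324 of the wide ones) and are absent from the control list.

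The width limit did not fall at a step in the signal. Peaks up to 10 bp below it numbered 4040 with overexpression and 1929 in the control, with median reads of 3 and 5. Those up to 10 bp above it numbered 3857 and 1785, again with 3 and 5 reads. Median folds just below and just above the limit were 2.40 and 2.40 with overexpression, and 3.02 and 3.08 in the control.

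The ratio of wide regions, overexpression over control, was 1.58, and covered length (67.3 Mb with overexpression, 53.6 Mb in the control) gave 1.26. Limits of near-equal height gave ratios closer to 1. At 9.11 times the average with overexpression (3 reads) and 8.77 times in the control (4 reads) there were 54329 and 51199 wide regions, a ratio of 1.06. At about 15 times (5 and 7 reads) there were 30043 and 32974, a ratio of 0.911. At about 30 times (10 and 14 reads) there were 9908 and 10483, a ratio of 0.945. At about 61 times (20 and 28 reads) there were 1839 and 1499, a ratio of 1.23. Over all peaks the ratios at these 4 limits were 1.31, 1.12, 0.974 and 1.23. The direction of the count thus depended on the height limit and, at about 15 times, on the width limit. At each of these 4 heights the lists differed in number by less than at the deposited limit.

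Of the wide overexpression regions, 39706 (44.6%, 44.3 to 44.9%) overlapped a control FLAG peak of any width by at least 1 bp, and 49345 did not. Of the wide control regions, 40661 (72.1%, 71.7 to 72.4%) overlapped an overexpression peak, and 15761 did not. The control list covered 3.15% of the genome and the overexpression list 6.996%, so the shares are not on the same footing. Coverage counts single bases. The share of regions of this width that would overlap by placement alone is higher and was not estimated, here or for the marks below. Whether a region was found again followed its height. Overexpression regions of 1 read had a control peak in 4.63% of cases, of 2 reads in 10.7%, of 3 reads in 32.2%, of 4 to 5 reads in 61.9% and of 6 to 8 reads in 88.8%. Those of 9 to 12 reads had one in 97.8% and those of 13 to 20 reads in 99.7%. All but 3 of the 1468 with 21 to 40 reads and all 118 with 41 or more had one. Control regions of 2 reads were found with overexpression in 32.2% of cases, of 4 to 5 reads in 50.8%, of 6 to 8 in 70.4%, of 9 to 12 in 86.3% and of 13 to 20 in 96.6%. All but 19 of the 3485 with 21 to 40 reads and all 397 with 41 or more were found. At matched heights of about 15 times the average or more, 88.9% (88.5 to 89.2%) of overexpression regions and 86.9% (86.5 to 87.3%) of control regions were found in the other list. At about 30 times or more these were 99.1% (98.9 to 99.3%) and 98.1% (97.8 to 98.4%).

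**Figure D2:**
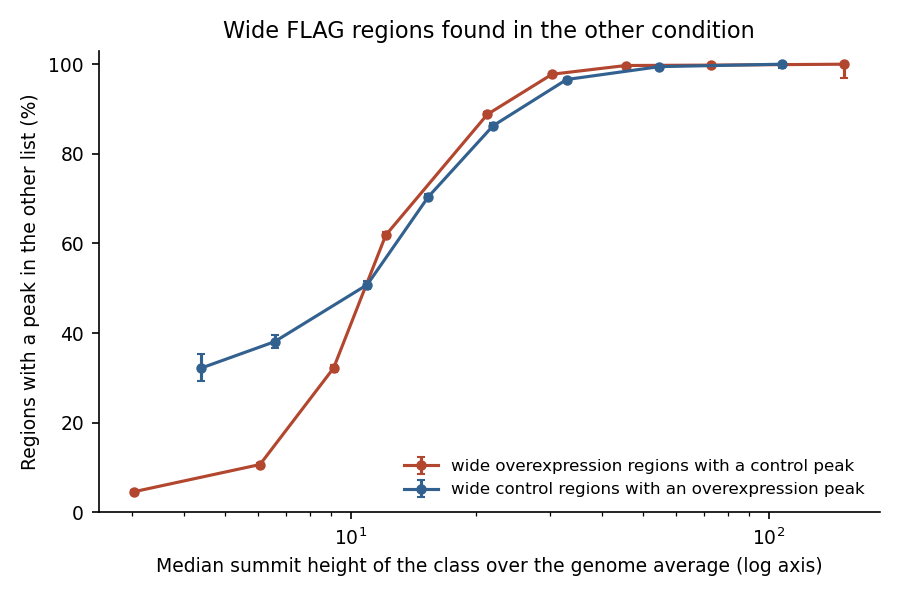
Share of wide FLAG regions that overlap a peak of the other condition (%) against the median summit height of each read class (log axis, over the genome average), with Wilson 95% bars. Both lines pass 95% by the class of 9 to 12 reads with overexpression (97.8%) and of 13 to 20 reads in the control (96.6%).

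The wide overexpression regions without a control peak had a median of 2 reads, a width of 610 bp and a fold of 2.26, and 64.5% of them had 1 or 2 reads. Those with a control peak had 6 reads, 745 bp and a fold of 3.79. In the control, regions without an overexpression peak had a median of 5 reads, 613 bp and a fold of 2.92, and those with one had 9 reads, 834 bp and a fold of 4.62. The regions of 1 condition also differed in place. Of the overexpression regions without a control peak, 31.2% (30.8 to 31.6%) lay in the darkest Giemsa band classes, gpos75 and gpos100, against 10.9% (10.6 to 11.17%) of those with one. These classes hold 405.6 Mb (gpos75) and 498.5 Mb (gpos100) of the 3036.3 Mb counted. The share of regions without a control peak was thus near that of the sequence itself, and the share of those with one was below it. Dark Giemsa bands are rich in AT, poor in genes and mostly late replicating. The control regions showed no such gap, with 8.00% (7.59 to 8.43%) of those without an overexpression peak and 8.42% (8.16 to 8.70%) of those with one in dark bands.

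Wide FLAG regions were densest in the palest band classes, gneg and gpos25, in both conditions, and the conditions differed most in the dark bands. In bands without stain (gneg) there were 38.2 wide regions per Mb with overexpression and 29.9 in the control. In the palest stained class (gpos25) there were 37.6 and 32.1 per Mb. In the darkest class (gpos100) there were 20.4 and 4.30 per Mb. The density in unstained bands was thus 1.88 times that in the darkest ones with overexpression and 6.96 times in the control. Among regions of about 15 times the average or more, unstained bands held 15.6 and 17.7 per Mb and the darkest 2.68 and 2.28 per Mb, which gives 5.83 times with overexpression and 7.77 times in the control. Most of the gap between conditions in dark bands was thus in regions of low height. At about 61 times the average the pale over dark contrast was 5.66 with overexpression and 7.43 in the control.

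**Figure D3:**
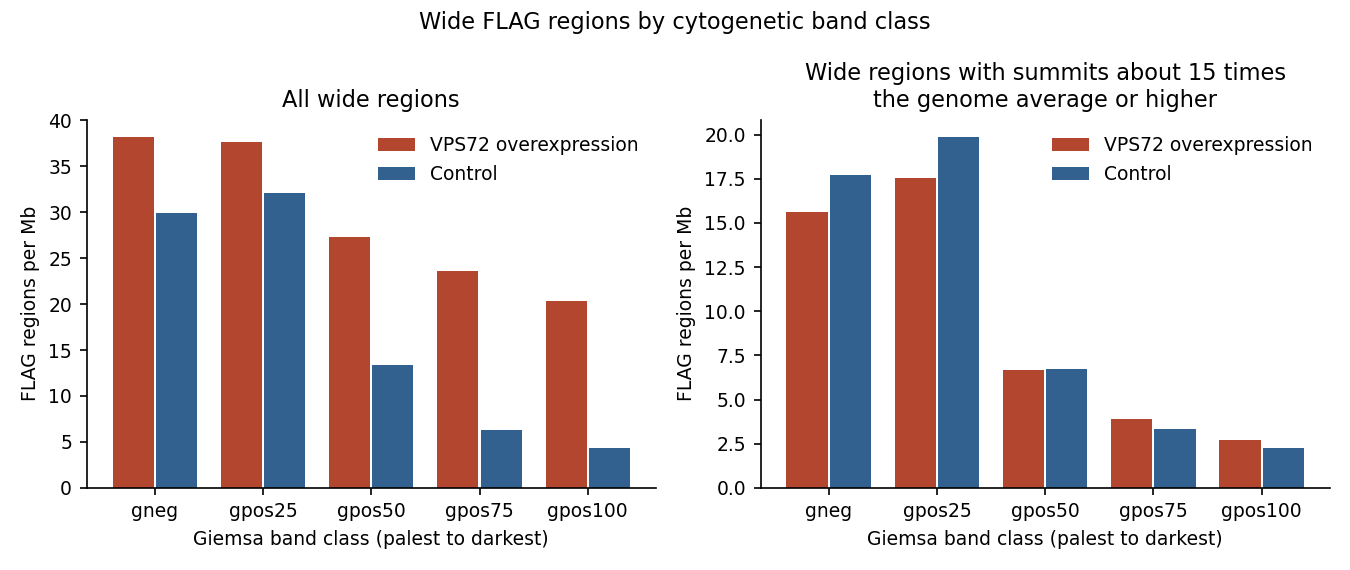
Wide FLAG regions per Mb by Giemsa class, from unstained (gneg) to darkest (gpos100), with VPS72 overexpression left of control in each class; left panel all wide regions, right panel those with summits of about 15 times the genome average or more. In gpos100 bands the pairs are 20.4 and 4.30 per Mb at left and 2.68 and 2.28 per Mb at right.

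FLAG was concentrated towards chromosome ends. Between 1 and 2 Mb from an end there were 96.9 wide regions per Mb with overexpression and 104.4 in the control, and in the outermost 1 Mb 73.6 and 77.5. Farther than 10 Mb from an end there were 25.9 and 13.15 per Mb. Of the cytogenetic bands, 7p22.3 was the densest in both lists, with 208.9 wide regions per Mb with overexpression and 231.1 in the control. Next in the overexpression list came 11p15.5 (161.8 per Mb, 184.6 in the control) and 19p13.3 (155.9 per Mb, 162.6 in the control). Next in the control list came 9q34.3 (154.7 per Mb with overexpression, 193.0 in the control) and 16q24.3 (139.6 and 186.7 per Mb). All 5 of these bands are unstained and all had fewer wide regions with overexpression, although the list as a whole was longer.

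Chromosome 19 had the most wide regions per Mb in both lists, 66.5 with overexpression and 72.4 in the control, followed with overexpression by chromosome 17 (45.7, and 43.1 in the control). The ratio of wide regions ranged from 0.757 on chromosome 22 (1893 with overexpression, 2500 in the control) to 2.67 on chromosome X (19.3 and 7.24 per Mb). Chromosome 22 also had the lowest ratio at about 15 times the average, 0.690 (1082 and 1567 regions), when the highest of any chromosome was 1.05. Chromosome 20 had 0.869 at that height (1478 and 1701 regions). At shared regions, defined below, the median height ratio was 0.881 on chromosome 22 and 0.865 on chromosome 20, against 0.969 over all chromosomes. The H2A.Z, H2A.Zac and H3K27ac lists at a q of 0.05 or less had ratios on these chromosomes that were 0.980 to 1.03 times their own ratio over all chromosomes. For H3K4me1 these were 0.681 on chromosome 20 and 0.665 on chromosome 22. For FLAG at about 15 times the average they were 0.954 on chromosome 20 and 0.758 on chromosome 22. At limits of 3 reads with overexpression and 4 in the control they were 0.861 and 0.668. At 10 and 14 reads they were 0.789 and 0.709, and at about 61 times the average 0.666 and 0.860. On chromosome 20 the FLAG value was thus close to those of H2A.Z only at about 15 times the average. At about 61 times the average the FLAG ratio was 0.818 on chromosome 20 (139 and 170 regions). On chromosome 22 it was 1.05 (58 and 55 regions), against 1.23 over all chromosomes. A difference in chromosome copies between the cells was not tested.

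Regions wide in both conditions were of like height in the median. Pairing each wide region with its best overlap in the other list, and keeping pairs that were each other's best, gave 26283 shared regions. Their median height ratio, overexpression over control, was 0.969 with quartiles 0.745 and 1.25, and the median ratio of local background was 1.00. The deposited fold gave 0.853, but that ratio carries a constant that weighs more in the shallower library. Summits lay a median of 135 bp apart. Heights ranked alike in the 2 libraries (Spearman 0.756 over the 26283 regions), as a description only, since regions are not replicates and share local background, which itself ranked alike (0.863). At least 1.5-fold higher with overexpression were 3286 shared regions, or 12.5%, and at least 1.5-fold lower were 4417, or 16.8%. With few reads a 1.5-fold step can be within counting error, so these shares describe the spread of the 2 libraries.

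The spread was narrower and the summits were closer at regions with more reads. The quartiles of the height ratio were 0.791 and 1.38 in the class with fewest reads and 0.811 and 1.10 in the class with most. Shared regions with 4 to 12 reads in both libraries together had a median ratio of 0.989 (6110 regions), those with 13 to 20 reads 0.923 (9069 regions) and those with 21 to 30 reads 0.958 (5853 regions). Those with 31 to 50 reads (4100 regions) and with 51 to 100 reads (1049 regions) had a median of 1.00 each. The 94 with more than 100 reads had 0.952, and of these 3 were at least 1.5-fold higher and 9 at least 1.5-fold lower with overexpression. The median distance between summits was 203 bp in the class with fewest reads and 50 bp in the class with most.

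**Figure D4:**
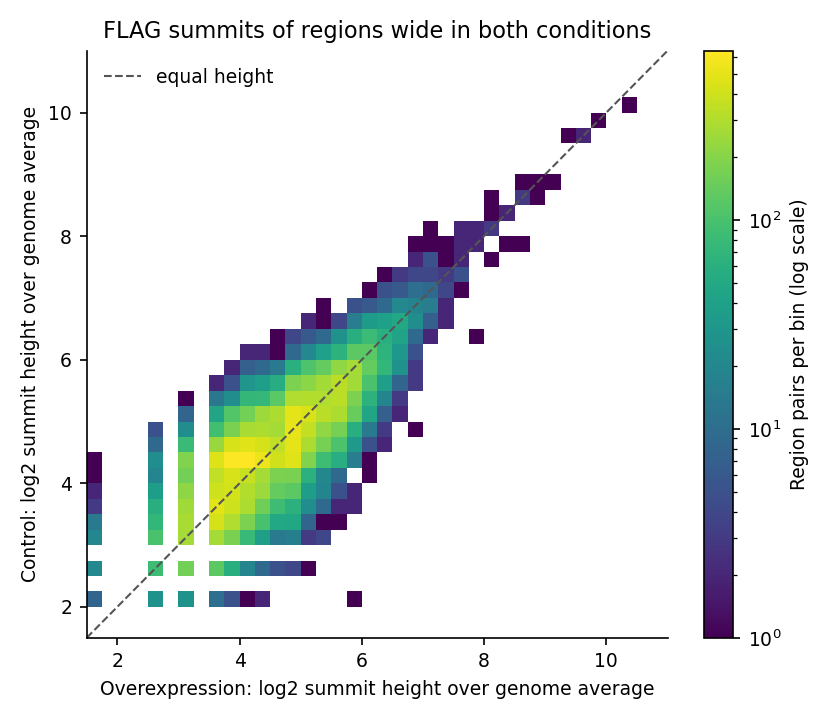
Summit height over the genome average at the 26283 regions wide in both conditions, VPS72 overexpression on the x axis and control on the y axis (both log2), coloured by the number of regions per bin on a log scale; the dashed line marks equal height. The cloud lies along the line (median ratio 0.969), is widest at low heights and tightens towards the tallest summits.

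By context, the medians of shared regions differed little. On control H3K27ac with a q of 0.05 or less the median ratio was 1.08 (1515 regions), against 0.963 elsewhere. On control H2A.Z it was 1.015 (2900 regions), against 0.963 elsewhere. Among regions with at least 31 reads in both libraries together these contrasts were not seen in that direction, with 0.964 on H3K27ac (118 regions) against 1.00 elsewhere and 0.947 on H2A.Z (490 regions) against 1.00 elsewhere. In dark bands the ratio was 1.04 (gpos75) and 1.0201 (gpos100), and in centromeric bands 0.865 (226 regions).

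The tallest regions were alike in both conditions and lay on high local background. At 21p11.2, on the short arm of an acrocentric chromosome, the summit held 425 reads with overexpression (386 to 467; chromosome 21, 9825538 to 9826509) and 535 in the control (491 to 582). The local background there was 126 and 131 times the genome average, and an input peak overlapped the region in both conditions. At 1q42.13, where the 5S ribosomal RNA genes lie, there were 254 reads with overexpression (chromosome 1, 228744051 to 228746997) and 341 in the control, on backgrounds of 35.3 and 35.9 times the average. The height ratio of this region, which carried all 4 histone marks, was 1.03. At 2p22.3 (chromosome 2, 33141186 to 33141847) there were 248 and 332 reads, on backgrounds of 59.7 and 61.4. The pair at 7p11.2, beside the centromere, had 287 and 420 reads (chromosome 7, 56438071 to 56440797) and 235 and 357 reads (56441077 to 56442497). Height ratios there were 0.946 and 0.911, on backgrounds from 81.4 to 97.3 times the average. These 5 places were common to the 6 with the highest −log10 q in each list. The sixth lay on 19q13.12 in both lists, at different places: 184 reads with overexpression and 231 in the control at 37783354 to 37788084 of chromosome 19, and 140 and 212 reads at 36789340 to 36800731. Among the 100 wide regions with the highest −log10 q, 37 with overexpression and 43 in the control had a local background of 10 times the average or more. Over all wide regions these were 221 of 89051 and 224 of 56422.

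Ranking by fold, which divides by local background, named other places. The highest fold of both lists was at 1p33 (chromosome 1, 48847720 to 48850002), 24.5 with overexpression and 30.8 in the control, with 50 and 72 reads. That region was 2283 bp wide with overexpression, 2313 bp wide in the control, had a background of 3.28 and 3.00 times the average, and overlapped no histone mark or input peak of either condition. The next folds with overexpression were at 14q11.2 (chromosome 14, 19720022 to 19720822), 23.7 against 17.8 in the control, and at 12q13.11 (chromosome 12, 48725885 to 48727814), 23.1 against 22.5. At 6q12 (chromosome 6, 64322599 to 64323270) there were 29 reads with overexpression (19.4 to 41.6) and 18 in the control (10.7 to 28.4), folds of 22.6 and 13.05 on a background at the average. The next folds of the control list were at 22q11.22 (chromosome 22, 22795676 to 22796614), 17.2 with overexpression against 26.2 in the control, and at 2q21.2 (chromosome 2, 133013400 to 133016083), 18.2 against 25.5. All 100 regions with the highest fold in either list had a peak in the other list, and 24 were among the highest 100 of both. Of these 100, 35 with overexpression and 49 in the control lay on a deposited histone peak of their own condition, and 11 and 32 on H2A.Z. Over all wide regions those lists gave 17.6% and 34.95% for any of the 4 marks, and 6.55% and 23.1% for H2A.Z.

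The widest regions lay near chromosome ends. The widest with overexpression was at 20q13.33 (chromosome 20, 62191116 to 62201085), 9970 bp wide against 9220 bp in the control, with 26 and 28 summit reads. The next was at 4q35.2 (chromosome 4, 190988435 to 190998038), 9604 and 7005 bp wide. The widest of the control was at 1p36.32 (chromosome 1, 2394932 to 2414813), where the control peak spanned 19882 bp and the paired overexpression peak 1426 bp. The next of the control was at 9q34.3 (chromosome 9, 139901593 to 139914106), 12514 bp wide, and its paired overexpression peak 3644 bp. Other overexpression peaks within these 2 control regions were not counted. These regions, like those chosen by fold, were added after their values were seen.

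Among shared regions with at least 20 reads in 1 library, the height ratios at the extremes were 4.85 and 0.244. The highest was at 16q12.1 (chromosome 16, 51826589 to 51827125), with 21 reads with overexpression (12.999 to 32.1) and 6 in the control (2.20 to 13.06). The others were at 19p13.2 (chromosome 19, 12880421 to 12881047), with 20 and 7 reads and a ratio of 3.96, at 10p12.2 and at 20q13.2 (chromosome 20, 50418507 to 50419231), with 22 and 8 reads and a ratio of 3.81. The 10p12.2 region (chromosome 10, 22634062 to 22635222) had the most reads of these, 36 with overexpression (25.2 to 49.8) and 13 in the control (6.92 to 22.2), with folds of 22.1 and 5.78. It overlapped no histone mark, and neither did the regions at 16q12.1 and 19p13.2. The lowest ratio was at 1q23.1 (chromosome 1, 158343828 to 158344513), with 6 reads with overexpression (2.20 to 13.06) and 34 in the control (23.5 to 47.5). At 2q14.3 (chromosome 2, 128351046 to 128352071) and at 7p22.3 (chromosome 7, 1352411 to 1353297) there were 4 and 21 reads each, a ratio of 0.264. No histone mark overlapped these regions or the one at 1q23.1. At 15q23 (chromosome 15, 71145792 to 71146601) there were 5 and 26 reads, a ratio of 0.266, and this was the only one of the 8 where each of the 4 marks had a deposited peak in at least 1 condition. The control had no H3K4me1 peak there. These are the ends of a ranking of 4490 regions, so large ratios are there by choice.

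The tallest regions found in 1 condition lay on raised local background. With overexpression they were a pair at 4p16.1 (chromosome 4, 9273493 to 9274418, with 30 reads, and 9235868 to 9236374, with 25 reads) and one at 5p15.1 (chromosome 5, 17517754 to 17518838, with 22 reads). Their local backgrounds were 36.5, 35.8 and 20.9 times the average, and their folds 2.38, 2.03 and 2.91. In the control the tallest lay at 8p23.1, with 36 reads on a background of 23.4 and a fold of 3.17, followed by 21p11.2 (chromosome 21, 9704175 to 9704759, with 32 reads on a background of 12.7) and 20q13.33 (chromosome 20, 60176322 to 60177231, with 31 reads on a background of 6.50). On backgrounds under 2 times the average, a limit added later, the tallest were smaller. These were 5q11.2 with 19 reads (chromosome 5, 50975292 to 50975838), 20p12.3 with 18 and 9q31.1 with 16 in the overexpression list, and 5p14.2 with 19 reads (chromosome 5, 23691046 to 23691713), 13q34 with 16 and 11p15.5 with 14 in the control list.

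FLAG lay on H2A.Z at a minority of wide regions in both conditions. With each condition's own H2A.Z list as deposited, 6.55% (6.39 to 6.72%) of wide regions overlapped H2A.Z with overexpression and 23.1% (22.7 to 23.4%) in the control. Those lists covered 0.796% and 2.29% of the genome, so the shares were read on lists of different length. The wide FLAG regions also differed in height between conditions, and what made the gap was not tested. With H2A.Z peaks of a q of 0.05 or less (0.328% and 0.642% of the genome) the shares were 2.88% and 9.13%. H2A.Zac at that q was under 4.30% of wide regions with overexpression and 11.3% in the control, H3K27ac under 2.62% and 5.85%, and H3K4me1 under 5.10% and 2.79%. At least 1 of the 4 marks was under 8.68% (8.49 to 8.86%) and 14.6% (14.3 to 14.9%). At that q, H3K4me1 was the only one of the 4 marks with the higher share with overexpression, and its list covered 2.51% of the genome with overexpression and 0.486% in the control. With the deposited H3K4me1 lists (3.49% and 1.79% of the genome) the direction was the other way, 8.82% with overexpression and 13.19% in the control. The deposited input peaks, which covered 0.00372% and 0.00341% of the genome, were under 17 wide regions with overexpression and 9 in the control.

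Wide regions found in both conditions lay on marks more often than those of 1 condition. With overexpression, H2A.Z of a q of 0.05 or less was under 5.90% (5.67 to 6.13%) of regions with a control peak and 0.446% (0.391 to 0.509%) of those without. H2A.Zac was under 8.48% and 0.940%, and H3K27ac under 5.01% and 0.699%. In the control, H2A.Z was under 10.6% (10.3 to 10.9%) of regions with an overexpression peak and 5.39% (5.05 to 5.76%) of those without. Height, which differed between these classes, was not held fixed here.

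The shares on H2A.Z, H2A.Zac and H3K27ac had a maximum at middle heights and were higher again among the tallest regions than in the class below them. With overexpression, H2A.Z of that condition was under 0.0450% of 1-read regions, 0.164% of 2-read regions and 1.22% of 3-read regions. It was under 7.63% at 6 to 8 reads, 7.81% at 9 to 12, 4.90% (3.91 to 6.13%) at 21 to 40 and 20.3% (14.1 to 28.5%) of the 118 regions with 41 reads or more. H3K27ac was under 6.62% (6.17 to 7.10%) of overexpression regions of 6 to 8 reads and 2.02% (1.64 to 2.48%) of those of 13 to 20. The control had the same shape, with H3K27ac under 8.41% (7.98 to 8.86%) of regions of 6 to 8 reads, 3.09% (2.74 to 3.49%) of those of 13 to 20 and 2.07% (1.64 to 2.59%) of those of 21 to 40. Regions of 13 to 40 reads thus carried H3K27ac less often than regions of 6 to 8 reads in both conditions. Local background was not held fixed in these classes. Of the 100 wide regions with the highest −log10 q, 37 and 43 had a background of 10 times the average or more. On deposited H2A.Z lay 34 and 54 of them. Of the 100 with the highest fold, 3 and 1 had such a background, and 11 and 32 lay on H2A.Z.

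**Figure D5:**
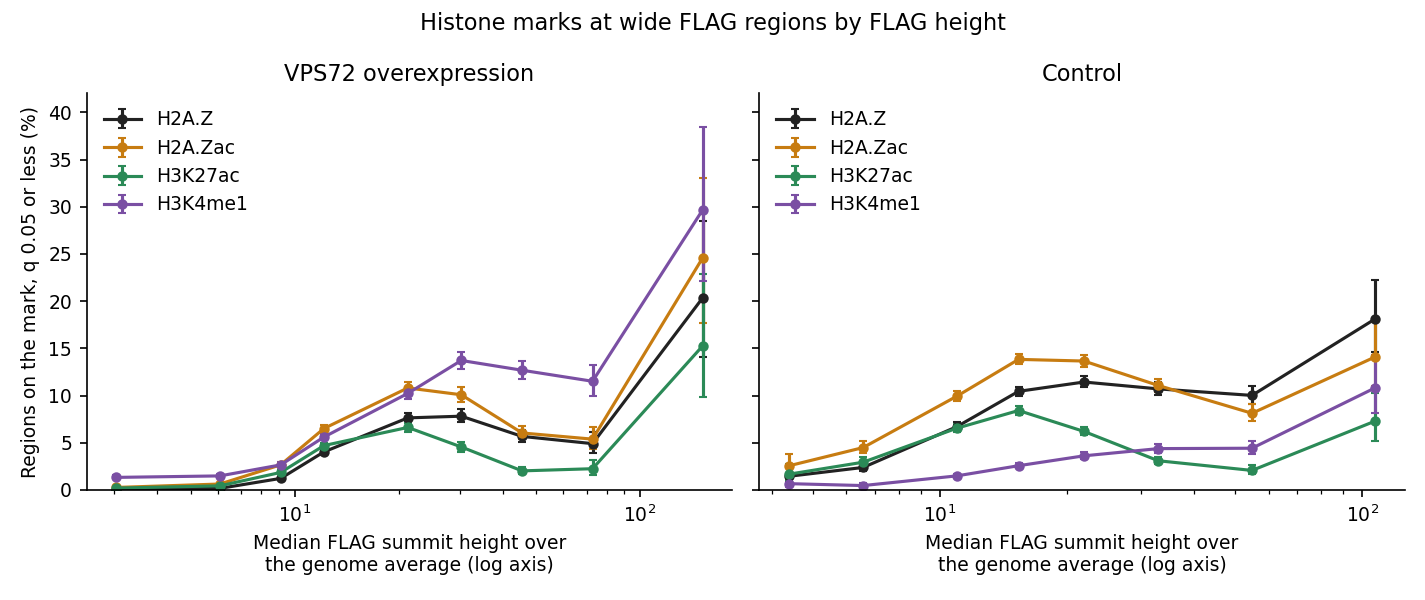
Share of wide FLAG regions that overlap a histone peak of a q of 0.05 or less of the same condition (%), against the median FLAG height of each read class (log axis), VPS72 overexpression left and control right, with Wilson 95% bars. H3K27ac has a maximum at 6 to 8 reads before the tallest class in both panels (6.62% and 8.41%), and all 4 marks are highest among the tallest regions with overexpression. Local background, high at many of the tallest regions, is not held fixed.

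Read against the same H2A.Z list, FLAG regions of near-equal height gave close shares at about 11 to 22 times the average. Below that the share was lower with overexpression, and above it the direction differed between heights. On the control H2A.Z list, 11.4% (10.8 to 11.998%) of overexpression regions at a median height of 21.2 (6 to 8 reads) and 11.4% (10.9 to 12.03%) of control regions at 21.9 (9 to 12 reads) overlapped H2A.Z. On the overexpression H2A.Z list these were 7.63% (7.15 to 8.14%) and 7.66% (7.18 to 8.17%). At heights of 30.4 (9 to 12 reads) and 32.9 (13 to 20 reads) the shares on the control list were 12.4% (11.6 to 13.3%) and 10.7% (10.1 to 11.4%). At heights of 45.5 (13 to 20 reads) and 54.8 (21 to 40 reads) they were 9.07% (8.26 to 9.96%) and 10.0% (9.06 to 11.1%). At heights of 12.1 and 10.96 (4 to 5 reads in each) they were 6.13% (5.78 to 6.49%) and 6.70% (6.27 to 7.16%). At heights of 6.07 (2 reads) and 6.58 (3 reads) they were 0.388% (0.313 to 0.481%) and 2.38% (1.97 to 2.88%), so the low regions of the overexpression list were on H2A.Z less often. In the tallest classes, at unlike heights of 151.8 and 107.4, they were 31.4% (23.7 to 40.2%) and 18.1% (14.7 to 22.2%). Fewer H2A.Z sites and a less enriched H2A.Z library cannot be told apart.

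Seen from H2A.Z, the conditions were closer over all H2A.Z regions than among the strongest ones. Of H2A.Z regions at that q, 0.05 or less, 19.1% (18.5 to 19.8%) of 14109 with overexpression and 20.3% (19.8 to 20.8%) of 26099 in the control held a wide FLAG region of their condition. Wide FLAG covered 2.22% and 1.77% of the genome, but a whole histone region meets FLAG more often than a single base does. What placement alone would give was not estimated for any mark. The share was 12.6% and 11.4% in the weakest of 5 classes of H2A.Z and 28.3% and 35.8% in the strongest. For H2A.Zac it was 14.4% and 16.1%, for H3K27ac 10.1% and 12.2%, and for H3K4me1 5.47% and 7.77%. H2A.Z thus held FLAG most often of the 4 marks in both conditions. Where they overlapped, FLAG and H2A.Z summits lay a median of 296 bp apart with overexpression, against 302 bp in the control.

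Gene positions in hg19 were not analysed here, so FLAG at the genes of the study's title is described by cytogenetic band, which holds many other genes. For comparison, the ratio of wide regions was 1.58 over the whole genome and 1.28 over unstained bands. It was 0.911 over the whole genome at about 15 times the average or more. At 1q21.3, the band of VPS72 itself, there were 165 wide regions with overexpression and 149 in the control, and 65 and 81 of about 15 times the average or more. At 1q32.3, the band of the stress-response factor ATF3, there were 52 and 36, and 25 and 16 at that height. At 1p36.22, the band of MTOR, the kinase of mTORC1, there were 247 and 231, and 131 and 141 at that height. At 17p11.2, the band of SREBF1, which encodes the lipogenic factor SREBP1, there were 272 and 360, and 196 and 271 at that height. At 22q13.2, the band of SREBF2, whose product drives cholesterol synthesis genes, there were 208 and 227 wide regions.

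The bands of lipogenic enzymes had 620 wide regions with overexpression and 842 in the control for FASN, fatty acid synthase, at 17q25.3, 268 and 241 for ACACA, acetyl-CoA carboxylase, at 17q12, and 71 and 72 for SCD, stearoyl-CoA desaturase, at 10q24.31. The band of SRCAP, the catalytic subunit that VPS72 works with, had 361 and 379 at 16p11.2. The bands of the H2A.Z genes had 50 and 11 for H2AZ1 at 4q23 and 90 and 109 for H2AZ2 at 7p13. The 4q23 ratio, 4.55, was the highest of the 11 bands and the only one above the 1.58 of all wide regions. In that band 7 overexpression regions and 3 control regions reached about 15 times the average. At that height 8 of the 11 bands had fewer regions with overexpression, and 1q32.3, 10q24.31 and 4q23 had more. The ratio of wide regions over the whole genome at that height was itself below 1, at 0.911 (1.12 for all peaks). This count is thus not particular to these bands.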

How the data were processed

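Peak lists of 2 FLAG ChIP-seq libraries and 10 histone and input libraries from Huh7 cells, each 1 per condition, were used as deposited. Groups follow the sample titles, as genotype labels of overexpression libraries name other VPS genes. FastQC, Trimmomatic, BWA and MACS2 are named in the submitters' processing notes, without versions. The caller's thresholds and control were not given in the sources used. The notes name hg19 and hg38, and peaks of 23 of 23 chromosomes stayed within hg19 lengths. The deposited fold is a ratio of the summit to the local background, with a constant of 1 added to each. The deposited −log10 p and −log10 q values belong to the summit, the authors' integer score was not used, and the deposited summit offset gives the summit's position.

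Reads at the summit were solved from each peak's fold and −log10 p by the Poisson model of MACS2, within 2e-05, and tested on simulated data. Local background is the peak caller's, divided by the genome average, which was the lowest background of the list. Overlap was at least 1 bp. Cytogenetic bands came from circlize 0.4.16. Depth limits precision, as 1 read weighs 3.04 and 2.19 times the average with overexpression and in the control. Alternatives varied width, q, overlap, selection and height.

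Named regions are the 6 with the highest −log10 q per list, the 4 highest and 4 lowest height ratios, the 3 tallest of 1 condition and the 3 densest bands per list. Those by fold, by width and on low background were added. The members and lists were chosen with earlier results of these data known. Versions were scipy 1.17.1, pandas 2.3.3, numpy 2.4.6, matplotlib 3.10.9 and Python 3.11.15.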

Additional observations from a re-analysis of the deposited data

How the results depend on the processing

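The excess of wide overexpression regions (ratio 1.58) depended on the limit. The ratio was 3.00 for all peaks, 0.749 at a width of at least 1000 bp, 0.726 at a q of 0.05 or less and 0.593 at a q of 1e-05 or less. At matched heights, added after seeing the data, it was below 1 at 5 and 7 reads (0.911) and at 10 and 14 reads (0.945). Peaks of any width gave 1.12 and 0.974 at these heights. The share of wide overexpression regions found in the control (44.6%) was 32.0% when both had to be wide, 27.8% at an overlap of 50% of both and 76.2% with both lists at a q of 0.05 or less. The share of wide control regions found with overexpression (72.1%) was 48.4%, 44.7% and 56.8% under these. The median height ratio (0.969) was 0.853 by fold, 0.923 when the control selected the regions, 0.989 when overexpression did, 0.981 at a width of at least 1000 bp and 1.00 at 31 reads or more in both together, the last also added after seeing the data. The share on H2A.Z with overexpression (6.55%) was 2.88% with H2A.Z at a q of 0.05 or less, 2.30% for all FLAG peaks and 14.1% at about 15 times the average or more, again added. In the control (23.1%) these were 9.13%, 13.6% and 28.1%. The causes were not tested. Leaving out regions on input peaks left the ratio at 1.58, and leaving out regions on a background of 10 times the average or more gave shares of 44.5% and 72.0%. No paired analysis was possible because each condition had 1 FLAG library, and none could be left out. Medians of 3 and 7 reads limit what single regions can show.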

Other observations

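FLAG peaks off chromosomes 1 to 22 and X numbered 5477 (0.983% of the deposited list) with overexpression and 3118 (1.67%) in the control. Most lay on the decoy sequence added to hg19 for mapping, which collects reads from repeats that the assembly lacks: 4441 and 2575 peaks, of which 1084 and 1131 were at least 500 bp wide. With a q of 0.05 or less there were 903 with overexpression and 1457 in the control, and the highest folds were 15.3 and 21.305. As on the chromosomes, the overexpression list was the longer as deposited and the shorter at that q.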
